A study of Mus musculus with 4 samples.

Results

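The MCD-responsive chromatin around Ptgs2 and Pde4b, a prostaglandin gene and a cAMP gene, was described by ATAC-seq, in which the transposase Tn5 cuts open DNA so that more reads mean higher accessibility. The members are the listed intervals whose nearest transcription start site (TSS) belongs to Ptgs2 or Pde4b. There were 5 of them among the 3812 intervals that the authors called differential, with 3 assigned to Ptgs2 and 2 to Pde4b. RAW 264.7 macrophages, a mouse cell line with macrophage properties that the sample labels write as RAW 267.4, were left untreated (control, 2 samples) or were incubated for 1 hr with 5 mM MCD (2 samples). The labels state no genotype and say that MCD was given with BSA, and the study's methods for this assay call the control cells untreated. Its general culture methods place treatments of these cells in medium with BSA, with water as the negative control. MCD, methyl-β-cyclodextrin, is a ring of sugars that extracts cholesterol from membranes. The deposited table holds 1 mean of normalized reads for each condition and interval, so the spread between samples and the depth of each sample are unknown. All values below are therefore the authors' condition means, given as a description with no test. The members were chosen by position from intervals selected on the authors' differential call, which rests on these same means, so that they differed at all is not a finding. The table cannot show whether macrophage marker genes were open, since it lists differential intervals alone.

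Ptgs2 encodes cyclooxygenase-2, the inducible enzyme that turns arachidonic acid into prostaglandin H2, from which the other prostaglandins are made. In macrophages it is a classic immediate response gene to inflammatory stimuli. Pde4b encodes a phosphodiesterase that breaks down cAMP, the second messenger that prostaglandin E2 raises through its receptors EP2 and EP4. In macrophages, cAMP acts through protein kinase A and the factor CREB and restrains the production of inflammatory cytokines. The 2 genes thus stand at different points of the same circuit, one on the way to the ligand and the other removing the messenger.

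The reference sequence of each member is printed because the motifs described later lie in these letters. They were read from the plus strand of GRCm38 (mm10), and capitals mark matches to the AP-1, κB and PU box motifs and to the letters TGACNTCA.
Ptgs2 interval 1, chr1:150108726-150108926: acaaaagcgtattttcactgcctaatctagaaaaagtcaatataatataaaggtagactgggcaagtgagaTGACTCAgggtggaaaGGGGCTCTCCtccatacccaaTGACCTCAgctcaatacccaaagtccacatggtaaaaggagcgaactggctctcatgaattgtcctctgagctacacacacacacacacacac
Ptgs2 interval 2, chr1:150151382-150151582: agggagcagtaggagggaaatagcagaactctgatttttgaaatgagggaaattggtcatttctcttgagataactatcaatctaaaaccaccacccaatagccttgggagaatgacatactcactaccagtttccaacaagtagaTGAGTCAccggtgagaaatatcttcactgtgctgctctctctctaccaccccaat
Ptgs2 interval 3, chr1:150197837-150198037: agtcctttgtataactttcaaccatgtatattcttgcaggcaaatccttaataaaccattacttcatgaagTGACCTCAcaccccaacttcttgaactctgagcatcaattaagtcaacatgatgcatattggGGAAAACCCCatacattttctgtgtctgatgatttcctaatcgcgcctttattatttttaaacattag
Pde4b interval 1, chr4:102608091-102608291: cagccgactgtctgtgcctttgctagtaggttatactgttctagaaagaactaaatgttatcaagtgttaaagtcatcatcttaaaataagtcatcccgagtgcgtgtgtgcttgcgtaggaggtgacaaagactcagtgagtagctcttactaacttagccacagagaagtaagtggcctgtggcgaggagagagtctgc
Pde4b interval 2, chr4:102617434-102617634: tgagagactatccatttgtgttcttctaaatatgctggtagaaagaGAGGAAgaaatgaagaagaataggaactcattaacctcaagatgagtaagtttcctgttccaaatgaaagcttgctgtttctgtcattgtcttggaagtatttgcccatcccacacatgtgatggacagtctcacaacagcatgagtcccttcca

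All 5 members were gained, meaning that the MCD mean was above the control mean, as it was in 73.2% of all listed intervals. Accessibility thus differed in 1 direction at both genes, with no listed interval that was lost. The rise ranged from 1.63-fold to 4.35-fold. Having 3 or more gained intervals, as Ptgs2 had, was shared by 168 of the 1953 genes with at least 1 (8.60%), and 472 genes (24.2%) had 2 or more, as Pde4b did.

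Ptgs2 (ENSMUSG00000032487.8) lies on the plus strand of chromosome 1 of GRCm38 from 150100031 to 150108227. Its 3 intervals were all downstream of the gene and intergenic. Ptgs2 interval 1 began 499 bp past the 3′ end of the gene and lay 8795 bp from the TSS. Its mean was 9.89 normalized reads in control and 43.0 after MCD, a 4.35-fold difference, or 2.12 on the log2 scale. Before MCD this site was among the less accessible, since 12.0% of the gained intervals had a lower control mean. Its log2 difference was above that of 87.8% of the gained intervals.

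Ptgs2 interval 2, 51451 bp from the TSS, lay between the pseudogene Gm9687 and the long noncoding RNA gene Ptgs2os2. It was already open in control, with 101 normalized reads, and reached 164 after MCD, a 1.63-fold difference (0.70 on the log2 scale). Its fold was the smallest of the 5 members, while its gain of 63.5 normalized reads was close to that of Ptgs2 interval 3. Ptgs2 interval 3, 97906 bp from the TSS and beyond Ptgs2os2, went from 20.5 to 83.9 normalized reads, a 4.10-fold difference (2.03 on the log2 scale). The centres of these intervals were 42656 and 46455 bp apart, so that the 3 sites formed a spaced series over the region 3′ of the gene. Summed over the 3 sites, the means were 131 normalized reads in control and 291 after MCD.

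Pde4b (ENSMUSG00000028525.16) lies on the plus strand of chromosome 4 from 102087543 to 102607259. It is a long gene whose 13 annotated transcripts start at sites spread over 502300 bp, and the nearest start to both members was the most 3′ one, at 102589843. Pde4b interval 1 began 832 bp past the 3′ end of the gene, 18348 bp from that TSS. Transcript ENSMUST00000106908.8 alone reaches that 3′ end. The other transcripts end before it, and the one with the nearest start ends at 102603441. The mean of Pde4b interval 1 was 98.9 normalized reads in control and 230 after MCD, a 2.33-fold difference (1.22 on the log2 scale). This was the largest gain of the 5 members in reads, at 131, and its MCD mean was above that of 97.0% of the gained intervals. Pde4b interval 2 lay 9343 bp further on and was intergenic as well. It went from 17.5 to 53.5 normalized reads, a 3.05-fold difference (1.61 on the log2 scale).

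**Figure D1:**
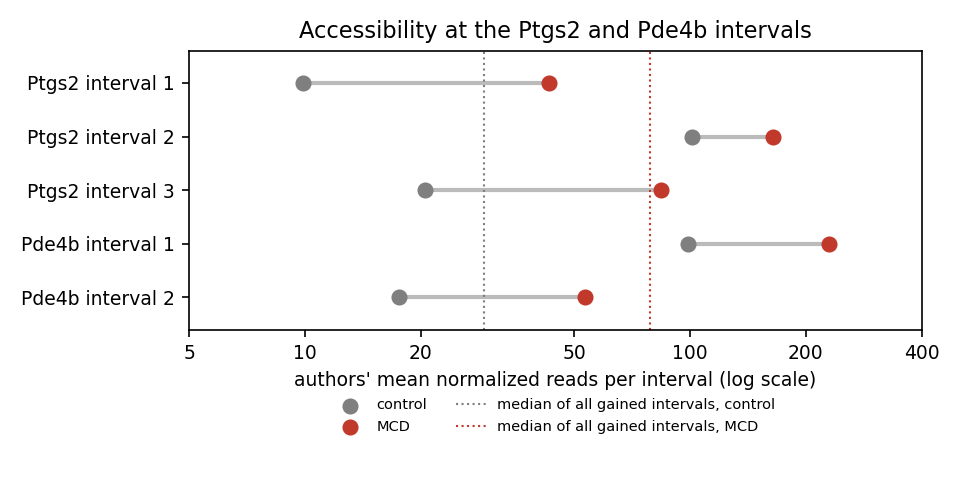
Authors' mean normalized reads (log axis) at the 5 intervals in control (grey) and after MCD (red), with dotted lines at the medians of all gained intervals, 29.2 in control and 78.6 after MCD. The intervals at 9.89, 17.5 and 20.5 start below the control median, and the other two start at 98.9 and 101 normalized reads.

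The 5 members fell into 2 levels in control. Ptgs2 interval 1, Pde4b interval 2 and Ptgs2 interval 3 had control means of 9.89, 17.5 and 20.5 normalized reads, below the median of 29.2 over all gained intervals. Pde4b interval 1 and Ptgs2 interval 2 had control means of 98.9 and 101, above those of 91.4% and 92.0% of the gained intervals. Among all listed intervals, lost ones included, these shares were 77.6% and 78.4%. Neighbours in this order cannot be told apart, as no spread between samples is known. Each gene thus had 1 interval with a control mean near 100 normalized reads and at least 1 with a control mean below the gained median.

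Gained intervals with a low control mean had larger folds, so each member was set beside the other gained intervals with a control mean within 0.5 of its own on the log2 scale. The median log2 difference of these was 1.95 around Ptgs2 interval 1 and 0.81 around Ptgs2 interval 2. Pde4b interval 1 had a larger difference than 95.0% of 423 such intervals, whose median difference was 0.82. For Ptgs2 interval 3 this share was 89.7% of 696, and for Ptgs2 interval 1 it was 68.1% of 527. Pde4b interval 2 was in the middle, above 48.2% of 714, and Ptgs2 interval 2 was low, above 16.5% of 412. The highest of the 5 shares was therefore at the interval just past the 3′ end of Pde4b, although its fold was the fourth of the 5. These intervals share their libraries and normalization, and the shares describe the table and test nothing.

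**Figure D2:**
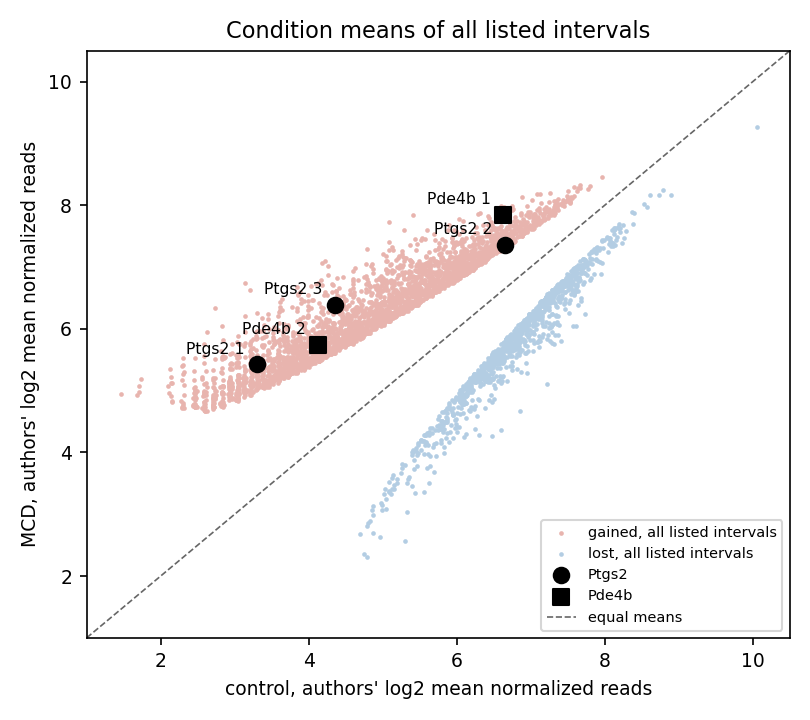
Control mean (x axis) against MCD mean (y axis) of all 3812 listed intervals, both on the authors' log2 scale, with gained intervals in light red, lost ones in light blue, and Ptgs2 (circles) and Pde4b (squares) in black. Only intervals listed as differential are drawn, which leaves an empty band along the dashed line of equal means. Ptgs2 interval 2 lies near the edge of that band.

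The members' sequences were searched on both strands for 15 motifs, of which 4 had a match, and the share of all listed intervals with each motif is given beside the count. AP-1 (TGACTCA), the site of Jun and Fos dimers, was present in Ptgs2 intervals 1 and 2 and in 34.1% of all listed intervals, or 45.9% of the gained ones. The second of these matches is on the minus strand and reads TGAGTCA in the printed sequence. The κB site, to which NF-κB binds, was present in Ptgs2 intervals 1 and 3 and in 7.03% of all listed intervals, or 8.67% of the gained ones. These 2 sites read GGGGCTCTCC on the plus strand (chr1:150108813-150108822) and GGGGTTTTCC on the minus strand (chr1:150197970-150197979). Each of the 3 Ptgs2 intervals held an AP-1 or a κB match, as did 39.0% of all listed intervals and 51.7% of the gained ones. The AP-1 match of Ptgs2 interval 2 was 49 bp from the centre, and a search of the central 100 bases left 1 member with AP-1.

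Ptgs2 interval 1 held both motifs, 9 bp apart, and its κB match was 8.5 bp from the centre of the interval. Only 82 listed intervals (2.15%) had both, of which 81 were gained. Neither Pde4b interval held AP-1 or κB, like 48.3% of the gained intervals, and so few intervals cannot show a difference between the genes. Both Pde4b intervals had a stretch with 1 mismatch to the AP-1 letters. A stretch with at most 1 mismatch was present in 70.6% of all listed intervals and in 81.8% of the gained ones. Pde4b interval 2 held a PU box (GAGGAA), the core bound by the macrophage factor PU.1, which was present in 34.5% of all listed intervals, in 28.1% of the gained ones and in 52.2% of the lost ones. Pde4b interval 1, with the highest MCD mean of the members, matched none of the 15 motifs.

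The NFAT core (TGGAAA) was present in Ptgs2 intervals 1 and 2 and in 20.8% of all listed intervals. In interval 1 it directly precedes the κB match. The full CRE (TGACGTCA), through which CREB answers cAMP, was present in none of the 5 members and in 1.08% of all listed intervals, and its core TGACG was present in none of the 5 and in 12.4%. The looser letters TGACNTCA, searched after the sequences had been seen, were present as TGACCTCA in Ptgs2 intervals 1 and 3 and in 10.8% of all listed intervals. The motifs with no match in the members were C/EBP (TTGCNNAA, in 12.3% of all listed intervals), E-box (CACGTG, 4.35%), GC box (GGGCGG, 7.79%), CArG box (1.15%), IRF (2.65%), GAS (TTCNNNGAA, 6.09%), RUNX (TGTGGT, 22.0%), EGR (GCGTGGGCG, 0.446%) and SRE (TCACNCCAC, 1.42%). A match here is one of letters and not of a bound factor.

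**Figure D3:**
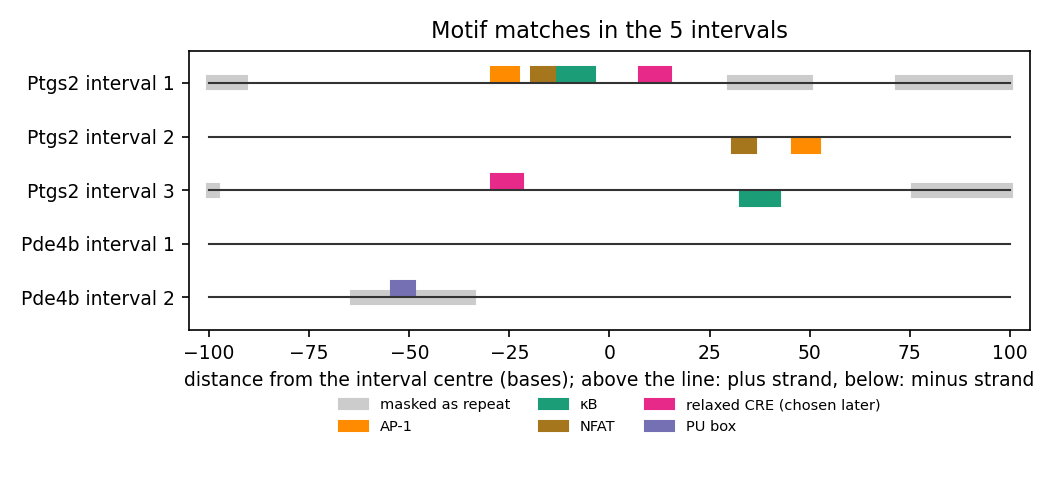
Place of each motif match in the 5 intervals, in bases from the interval centre, with plus strand matches above the line, minus strand matches below it, and reference bases masked as repeats in grey. The AP-1 and κB matches lie in the Ptgs2 intervals and outside the grey stretches, while the PU box of Pde4b interval 2 lies inside one.

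Repeat content was low to moderate, with 29.9% of Ptgs2 interval 1 masked as repeats in the reference, 15.4% of Pde4b interval 2, 13.9% of Ptgs2 interval 3, and 0 in the other two. The AP-1 and κB matches were outside the masked bases, and the PU box of Pde4b interval 2 was inside. GC content ranged from 35.8% in Ptgs2 interval 3 to 44.8% in Ptgs2 interval 1 and Pde4b interval 1, below the median of 47.8% over the gained intervals.

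The members also had their place in common. All 5 were intergenic, as were 40.4% of the gained intervals, and all 5 lay downstream of the TSS, as did 56.8%. The first interval of each gene began within 1 kb past its 3′ end, a place that held 2 of the 5 members and 1.57% of all listed intervals. For Pde4b this is the end of its furthest-reaching transcript, and the other transcripts end further from the interval. The 1 kb window was not among the planned settings, and it encloses the offsets of these 2 members, 499 and 832 bp. The comparison with all listed intervals therefore describes where the members lie and shows no enrichment. No listed interval lay within the body of either gene or within 3 kb of any of their TSSs, so no change was listed at the promoters. An interval there that did not change would not be listed, and whether the promoters were open is not known from these data.

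Gene assignment by distance was firm for some members only. Ptgs2 interval 1 was nearest to Ptgs2 with every set of TSSs used. When noncoding genes without an Entrez identifier were included, Ptgs2 interval 2 was nearest to the pseudogene Gm9687 (5514 bp) and Ptgs2 interval 3 to Ptgs2os2 (32989 bp), leaving 1 interval for Ptgs2. When only the first TSS of each gene was used, both Pde4b intervals were nearest to Sgip1, at 151944 and 142601 bp, although interval 1 lies 832 bp from the end of Pde4b. Distance does not show which gene an interval acts on.

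**Figure D4:**
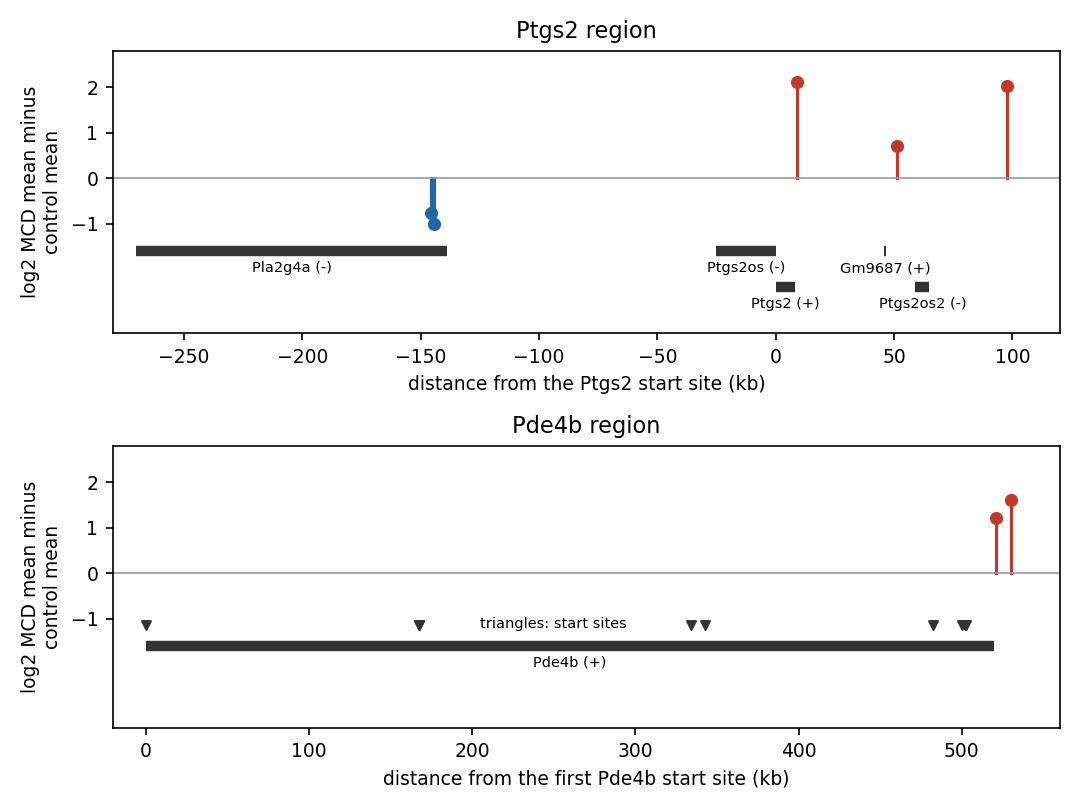
Gene bodies (black bars, strand in parentheses) and listed intervals around Ptgs2 (top, x axis in kb from its TSS) and Pde4b (bottom, x axis in kb from its first TSS, triangles at its start sites), with the height of each pin giving the log2 MCD mean minus the log2 control mean. The 5 gained intervals (red) stand 3′ of the 2 genes, and the 2 lost ones (blue) stand in Pla2g4a.

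The next listed interval on the 5′ side of Ptgs2 was in Pla2g4a, the gene of the cytosolic phospholipase A2 that releases the substrate of cyclooxygenase. It was 153172 bp from Ptgs2 interval 1 and was lost, going from 108 to 54.0 normalized reads. A second intronic interval of Pla2g4a went from 235 to 138 normalized reads, and an intergenic one, 1019140 bp from its TSS, went from 201 to 128. At adjacent genes of the same pathway, the listed intervals thus had opposite directions.

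The prostaglandin list held 34 genes of release, synthesis, transport, receptors and breakdown, and was chosen with earlier results of these data known. Of these, 5 (14.7%) had at least 1 gained interval and 4 (11.8%) had at least 1 lost interval, against 8.72% and 3.73% of all 22384 genes with a TSS, and 25 genes had neither. Over its 15 listed intervals the median log2 difference was 1.01, beside 1.14 over all listed intervals. Ptgs2 itself is one of the 5. When intervals were assigned to the TSSs of all annotated genes, the counts were 3 genes with a gained and 1 with a lost interval.

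Among the synthases, Ptges, which makes prostaglandin E2 from the product of cyclooxygenase, had 3 gained intervals, all intronic in its annotation. These intervals lay upstream of the Ptges TSS used for assignment, by 9967, 17085 and 21988 bp. The most gained of them had a log2 difference of 2.52 and went from 15.3 to 87.5 normalized reads, a larger difference than at any Ptgs2 interval. The other two went from 35.7 to 110.0 and from 36.3 to 139, and 2 of the 3 held AP-1. Hpgds, which makes prostaglandin D2, had 1 lost interval that went from 34.9 to 12.0 normalized reads. Ptgs1, the constitutive cyclooxygenase, had 1 gained interval, 48556 bp from its TSS, that went from 21.4 to 55.8 and held AP-1.

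Among the receptors, Ptger2, which encodes EP2, had a gained interval that went from 57.9 to 117 normalized reads, 53105 bp from its TSS. Ptgfrn, which encodes a membrane partner of the prostaglandin F2 receptor, had one that went from 26.4 to 65.2. On the side of removal, Hpgd, which encodes the dehydrogenase that inactivates prostaglandins, had a lost interval within the gene that went from 78.7 to 19.4, a log2 difference of -2.02 and the most lost of the list. Abcc4, which encodes an exporter of prostaglandins and cAMP, had a lost interval that went from 150 to 93.5. Outside Ptgs2, 3 of the 6 gained intervals of this list held AP-1 and none of the 12 listed intervals held κB, near the shares of 45.9% of all gained intervals for AP-1 and 7.03% of all listed intervals for κB.

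**Figure D5:**
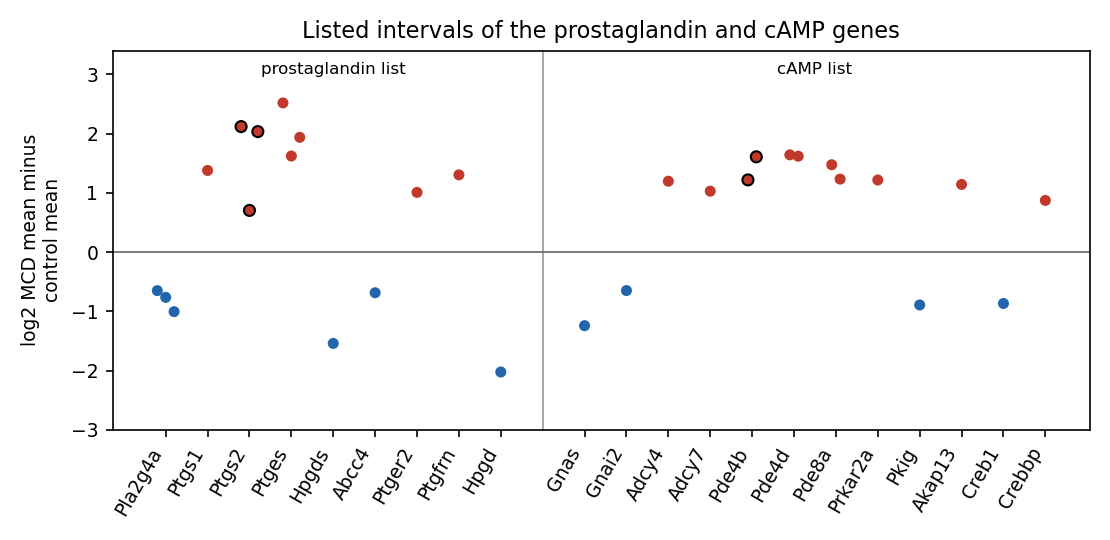
Log2 MCD mean minus log2 control mean of every listed interval of the prostaglandin list (left) and the cAMP list (right), with 1 point per interval, gained in red, lost in blue, and the Ptgs2 and Pde4b points outlined. Ptges holds the highest point, at 2.52, and Hpgd the lowest, at -2.02.

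The cAMP list held 51 genes with a TSS, of which 8 (15.7%, Pde4b among them) had at least 1 gained interval and 4 (7.84%) had at least 1 lost interval, against the same 8.72% and 3.73% of all genes. Among the phosphodiesterases, Pde4d had 2 gained intervals inside the gene, which went from 13.3 to 41.4 and from 19.2 to 59.0 normalized reads. These log2 differences, 1.64 and 1.62, were close to the 1.61 of Pde4b interval 2. Pde8a, another phosphodiesterase of cAMP, had 2 gained intervals, with log2 differences of 1.48 and 1.23. Adenylate cyclases, which make cAMP, had gained intervals at Adcy4 (from 29.5 to 67.5 normalized reads) and Adcy7 (from 124 to 253). Adcy7 was the only cAMP gene whose MCD mean was above that of Pde4b interval 1.

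Of the G protein subunit genes on this list (Gnas, Gnai1, Gnai2 and Gnai3), Gnas and Gnai2 had a listed interval, and both were lost. Other subunit genes were not looked at. Gnas, which encodes the subunit that stimulates the cyclases, went from 164 to 69.3 normalized reads at an intronic site, and Gnai2, which encodes an inhibitory subunit, from 235 to 150. Of the genes that act after cAMP, Prkar2a, a regulatory subunit of protein kinase A, had a log2 difference of 1.22, and Pkig, an inhibitor of the kinase, of -0.89. Akap13, an anchoring protein, had one of 1.14. Creb1 had a lost interval (-0.87, 50347 bp from its TSS), and its coactivator gene Crebbp a gained one (0.87). Outside Pde4b, 5 of the 9 gained intervals of this list held AP-1 and none of its 4 lost intervals did, near the shares of 45.9% of all gained and 1.96% of all lost intervals.

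Intervals with the most similar pair of condition means were sought for the most changed interval of each gene, by Euclidean distance over the 2 log2 means. For Ptgs2 interval 1 they were assigned to Pid1, Csgalnact1 and Malt1, at distances of 0.0147, 0.0421 and 0.0433. For Pde4b interval 2 they were assigned to Eva1b, St3gal1 and Tet2, at 0.0103, 0.0104 and 0.0383. The intervals of Eva1b and Tet2 held a κB site, as did 8.67% of all gained intervals, while Pde4b interval 2 did not. The interval of Tet2 also held AP-1. Of the intervals nearest to Ptgs2 interval 1, which held both motifs, none held κB and that of Csgalnact1 alone held AP-1.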

How the data were processed

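RAW 264.7 macrophages were compared with and without MCD, with 2 samples per condition. The authors used Bowtie2 for alignment to GRCm38 (mm10), Picard for removing duplicates and MACS for peaks (MACS2 in the methods, MACS3 3.0.0 in the submitters' processing notes), and compared the conditions in DiffBind with DESeq2 and edgeR. The deposited values used are log2 means of normalized reads per condition over intervals of 201 bp. The normalization, the treatment of the Tn5 offset and whether peaks were called on pooled reads are not given in the sources used here. The deposited log2 Fold, p-value and FDR columns hold the authors' own comparison and were not used. Expression was not analysed here.

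Intervals were assigned to the nearest TSS, from their centre, among GENCODE M21 basic transcripts with an Entrez identifier, and a promoter was set at 3 kb. Sequence and repeat masking were read from RefSeq GRCm38.p6, whose coordinates are those of mm10, with pysam 0.24.0. Python 3.11.15, numpy 2.4.6 and pandas 2.3.3 were used, and the code was tested on simulated data. No test across intervals was run, since the members were chosen on this contrast. The members and lists were chosen with earlier results of these data known. Named were every member, every gene of the prostaglandin and cAMP lists with a listed interval, the genes next to the members, and the 3 intervals nearest in condition means to the most changed interval of each gene. Of 52 symbols on the cAMP list, 51 matched a gene. Other TSS sets, windows, motif letters and 5 added reads were tried as alternatives.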

Additional observations from a re-analysis of the deposited data

How the results depend on the processing

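No paired analysis was possible because each condition has only its mean, with no values per replicate, and for the same reason leaving out each sample and a fit per sample were not run. Of 54 recomputed values, 46 stayed close to the reported value (counts within 1.5 times), 8 moved and 0 reversed. Some of the 46 could not have moved, so this count is no measure of robustness. No member was mostly masked as repeats, so leaving out such intervals removed none. With 2 intervals, the mean for Pde4b equals its median. Others of the 46 were counts of 0 that stayed at 0. With the TSSs of all annotated genes, Ptgs2 kept 1 of its 3 intervals, and the prostaglandin list had 3 genes with a gained and 1 with a lost interval. With the first TSS of each gene alone, chosen after the data were seen, Pde4b had 0 intervals. With 5 reads added to each mean, the median log2 difference was 1.69 for Ptgs2 and 1.28 for Pde4b, against 2.03 and 1.41. The mean over intervals was 1.62 for Ptgs2. In the central 100 bases, 1 interval held AP-1. The depth is unknown, so no precision can be given for folds on low control means such as 9.89 normalized reads.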

Other observations

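The listed intervals on either side of the members were recorded as well. On the 3′ side of the Ptgs2 intervals, the next listed interval was in Odr4, 179702 bp away, and was lost, going from 131 to 74.7 normalized reads. The 3 gained Ptgs2 intervals thus stood between lost ones on both sides. At Pde4b the nearest listed intervals were far off and were gained. The one on the 5′ side was in Jak1, 1405386 bp away, and went from 20.2 to 50.0 normalized reads. The one on the 3′ side was in Wdr78, 478610 bp away, and went from 10.9 to 49.7.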
